A study of Homo sapiens with 4 samples.

Results

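Kinesins are motor proteins that use ATP to walk along microtubules or to take them apart. Genes were counted as kinesins where the symbol in the count table was KIF with a number and any letters, or KIFC with a number, which gave 42 of 19381 genes. Of these, 12 were taken as mitotic kinesins (KIF2C, KIF4A, KIF11, KIF14, KIF15, KIF18A, KIF18B, KIF20A, KIF20B, KIF22, KIF23 and KIFC1) and the other 30 as kinesins of transport, cilia and other tasks. The split follows a fixed list and is not strictly one of function. Close relatives of listed genes, KIF2A and KIF2B of KIF2C and KIF4B of KIF4A, are among the 30. CENPE, a mitotic kinesin whose symbol does not begin with KIF, is given among the spindle partners.

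The RNA came from SK-LMS-1, an established human leiomyosarcoma cell line that the labels place in the uterus. Cells received 2-D08 at 50 µM for 48 h (2 libraries) or were left untreated (2 libraries), with no vehicle named. 2-D08 is a flavone that blocks the transfer of the protein modifier SUMO to its substrates. Both groups are this single line in culture. The labels do not state whether replicates were grown separately, so the p-values reflect library-to-library spread alone and that spread may be technical.

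In a dividing cell, mitotic kinesins build the spindle, move and align chromosomes, and organise the midzone at which the cell is divided. Their transcripts are made mainly late in the cell cycle. Other kinesins carry organelles, vesicles and ciliary cargo towards microtubule plus ends, often through light chains or adaptor proteins, and dynein carries cargo the other way. In RNA from a whole culture, fewer cells in a cycle stage and less RNA per cell cannot be told apart.

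Library totals were 14796702 and 31300635 counts in treated cells and 29586475 and 16628710 in untreated cells. Among kinesins with reads, 51.3% and 94.7% had an even count in treated replicates 1 and 2, and 91.7% and 50.0% in untreated replicates 1 and 2. Halving the counts of the mostly even libraries left the kinesin calls at the same numbers. Of 9 smooth muscle markers, DES had 0 counts in all 4 libraries, MYH11 lay at 0.664 and 0.778 CPM (counts scaled to library size with TMM factors) in treated and 0.472 and 0.726 CPM in untreated cells, and only CALD1, SMTN and TAGLN exceeded 10 CPM. The list summed to 659 and 699 CPM in treated and 801 and 826 CPM in untreated cells, mostly CALD1. CALD1, TAGLN and CNN1 were called lower and SMTN higher by edgeR. The summed CPM of 8 neuronal markers, mostly TUBB3, was 46.1 and 31.9 in treated and 52.7 and 46.1 in untreated cells. Of these markers, MAP2 was called lower and SNAP25 higher. For 6 epithelial markers, mostly KRT18, the sum was 273 and 226 against 339 and 299 CPM. KRT18 was not called, and KRT7, KRT19 and KRT8 were called lower. For 5 immune markers, mostly CD68, the sum was 98.3 and 99.2 against 61.9 and 66.5 CPM, with PTPRC between 0.202 and 0.519. For 4 endothelial markers it was 1.93 and 2.07 against 1.28 and 1.57 CPM. The part of these markers in the kinesin values was not tested.

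Per transcript length, the kinesin pool was led by KIF5B, the heavy chain of conventional kinesin, at 163 and 193 TPM in treated and 149 and 156 TPM in untreated cells. Next by mean TPM over all libraries came KIF23 (103), KIF2C (83.4), KIF4A (80.0) and KIF1C (74.7). In all, 24 kinesins had a mean above 10 TPM and 12 a mean below 1 TPM. The 12 mitotic kinesins summed to 635 and 686 TPM in treated cells and 583 and 592 TPM in untreated cells. That was 55.0% and 55.5% of all kinesin TPM in treated cells, against 52.9% and 53.1% in untreated cells. The 30 others summed to 519 and 551 TPM in treated cells and 519 and 524 TPM in untreated cells, so the wider gap lay in the mitotic sum. Without KIF5B, the others summed to 356 and 358 against 370 and 368 TPM. The deposited TPM values did not share 1 total. Over all genes they summed to 741705 and 716934 in treated cells and 761770 and 745964 in untreated cells, so small gaps between sums cannot be read as changes.

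Among mitotic kinesins, 4 of 12 tested were called higher in treated cells (KIF18B, KIF20B, KIF4A and KIF11) and 0 lower by edgeR's quasi-likelihood test at an adjusted p under 0.05. Over all 12906 genes tested, 33.9% were called, 17.1% higher and 16.9% lower. The median log2 fold change was 0.14 for the mitotic kinesins and -0.0033 for all genes tested. At an unadjusted p under 0.05, 5 mitotic kinesins were higher and 0 lower, where 44.1% of all genes tested passed in either direction. DESeq2 and limma-voom each called 4 higher and 0 lower. No kinesin of either class was called with a change of 2-fold or more, against 815 of all 12906 genes tested.

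KIF18B (chromosome 17, 44924709 to 44947711, GRCh38) is a kinesin-8 that acts at the plus ends of astral microtubules. It had 40.3 and 34.0 CPM in treated cells, against 23.9 and 23.6 CPM in untreated cells. Both treated libraries stood above both untreated ones. On the log2 scale the difference was 0.64 ± 0.12 (SE), at an edgeR adjusted p of 0.00146. This call alone among the called kinesins held in all 15 alternative settings.

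KIF20B (chromosome 10, 89701610 to 89774939), a kinesin-6 that serves the completion of cytokinesis, had 225 and 311 CPM in treated cells, against 162 and 185 CPM in untreated cells. The groups did not overlap, but treated replicate 1 lay nearer to the untreated libraries than to treated replicate 2. Its log2 fold change was 0.63 ± 0.13 (SE, edgeR's quasi-likelihood test, adjusted p = 0.00213). The call was lost on both TPM scales, log2(TPM + 1) and log2(TPM + 0.1), where limma gave adjusted p = 0.0674 and 0.0649. Without treated replicate 2 the log2 fold change was 0.37, and without treated replicate 1 it was 0.84.

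KIF4A (chromosome X, 70290090 to 70420832) is a chromokinesin that binds PRC1 and sets the length of midzone microtubules. It had 288 and 311 CPM in treated cells, against 209.8 and 222 CPM in untreated cells, again with no overlap. The log2 fold change was 0.47 ± 0.09 (SE, edgeR's quasi-likelihood test, adjusted p = 0.00133), and the call was lost without untreated replicate 1 (adjusted p = 0.0769). The intronless copy KIF4B carries 13.4% of the 50-base stretches of KIF4A transcripts. KIF4B itself had 7 and 8 counts in treated and 8 and 1 counts in untreated cells, against 4331 and 9584 counts of KIF4A in treated and 6224 and 3661 in untreated cells.

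KIF11 (chromosome 10, 92593286 to 92655395), the kinesin-5 that slides spindle poles apart, had 220.4 and 263 CPM in treated cells, against 182 and 189 CPM in untreated cells. All treated values were above all untreated values. The log2 fold change was 0.38 ± 0.10 (SE, edgeR's quasi-likelihood test, adjusted p = 0.0098). Without treated replicate 2 it was 0.24, still past the threshold (0.0106). The adjusted p was 0.168 when untreated replicate 1 was left out, 0.087 when untreated replicate 2 was left out, and 0.108 and 0.106 with limma on the TPM scales.

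**Figure D1:**
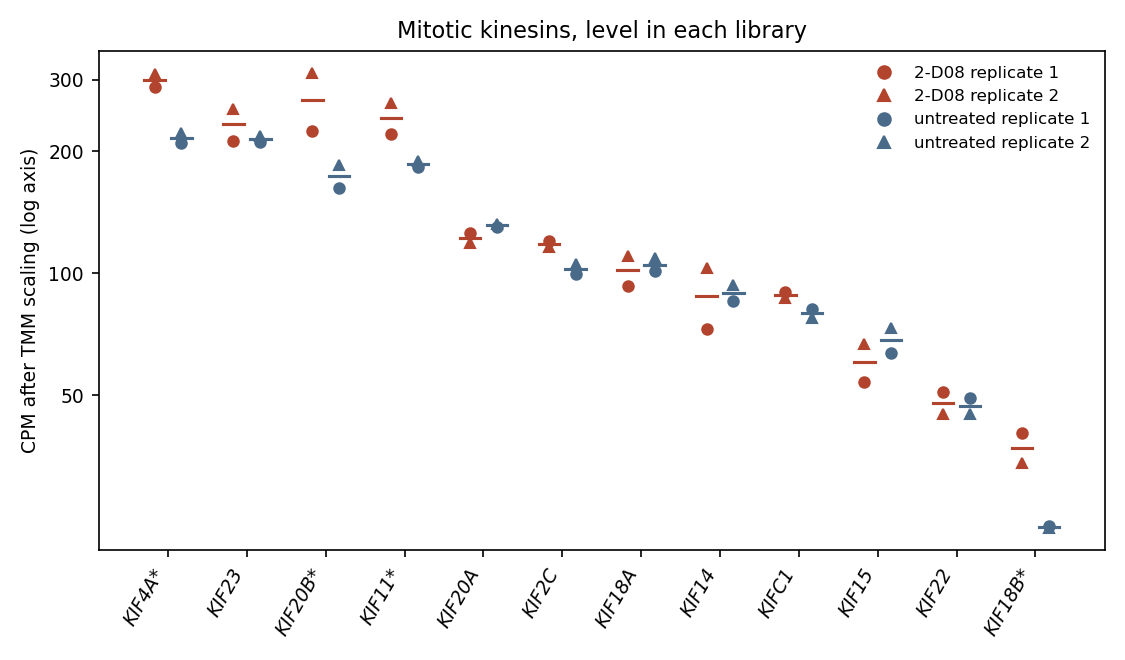
Level of each mitotic kinesin in CPM after TMM scaling (log axis), with 2-D08 libraries left of untreated ones, replicates 1 as circles, replicates 2 as triangles and group means as lines. Asterisks mark the 4 genes called higher, in which both treated libraries lie above both untreated ones, while the treated libraries of KIF14 at 72.8 and 103 CPM enclose the untreated ones.

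The other 8 mitotic kinesins did not pass the test, and for each of them the 95% interval of the fold lay within 1.5-fold either way. KIF2C, a kinesin-13 that removes subunits from microtubule ends and corrects faulty attachments, had 120.3 and 116 CPM in treated cells against 99.4 and 106 CPM in untreated cells. The treated libraries were both higher, with a fold of 1.15 (95% interval 1.01 to 1.32, edgeR adjusted p = 0.0962). KIFC1, a minus-end-directed kinesin-14 that focuses spindle poles and clusters extra centrosomes, had 89.8 and 87.0 CPM against 81.8 and 77.5 CPM. Here too the groups did not overlap, with a fold of 1.11 (0.966 to 1.27). Other annotated transcripts share 11.4% of the 50-base stretches of KIFC1, with RPL12P1 on the opposite strand at 11.2%.

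KIF23, the motor of centralspindlin, had 211 and 254 CPM in treated cells against 211 and 217 CPM in untreated cells. Only treated replicate 2 stood apart, and the fold was 1.09 (0.937 to 1.27). KIF22, a chromokinesin that pushes chromosome arms away from the poles, had 51.0 and 45.1 CPM in treated cells against 49.2 and 45.0 CPM in untreated cells, a fold of 1.01 (0.86 to 1.2). Reads of KIF22 cannot be fully assigned without strand, because an antisense gene shares 10.7% of its 50-base stretches.

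KIF14, which works at the midbody with citron kinase, had 72.8 and 103 CPM in treated cells against 85.6 and 93.4 CPM in untreated cells. The treated libraries lay on either side of the untreated ones. KIF18A, which dampens chromosome oscillations at metaphase, had 93.0 and 110.3 CPM in treated cells against 101 and 109 CPM in untreated cells, and the groups overlapped. Its relative KIF18B rose: the ratio of KIF18B to KIF18A on the TPM scale was 0.353 and 0.309 in treated cells and 0.202 and 0.192 in untreated cells.

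KIF20A, which brings the chromosomal passenger complex to the midzone, had 126 and 119 CPM in treated cells against 130.1 and 132 CPM in untreated cells. Both treated libraries were lower, with a fold of 0.933 (0.816 to 1.07, edgeR adjusted p = 0.41). Set against the other kinesin-6 KIF20B, the TPM ratio of KIF20B to KIF20A was 0.839 and 1.19 in treated cells and 0.59 and 0.665 in untreated cells. KIF15, a kinesin-12 that can stand in for KIF11 in holding the spindle bipolar, had 53.8 and 66.8 CPM in treated cells against 63.6 and 73.3 CPM in untreated cells. The groups overlapped, and the fold was 0.887 (0.744 to 1.06).

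Without regard to calls, 6 mitotic kinesins had non-overlapping groups with treated higher and 1 with treated lower. The share of all tested genes was 33.8% higher and 33.7% lower. The lone lower gene was KIF20A.

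Promoter sequences were read to see what the mitotic kinesins share beyond their levels. RefSeq windows (GRCh38.p14) from 250 bases before to 50 bases after the transcript start were matched by symbol for 12 of 12 mitotic and 22 of 30 other kinesins. The windows were searched on both strands for 3 elements known from genes of late cell cycle stages. These were the NF-Y box (CCAAT), the cell cycle homology region to which LIN54 binds (TTTGAA, or its variants TTCGAA and also TTTAAA, which read alike on both strands), and E2F letters (TTCCCGC, or with other middles TTCGCGC, then TTGCCGC, and finally TTGGCGC). The last of these can overlap the reversed NF-Y box. Stretches of 110 bases directly before the start are shown 5′ to 3′ in the direction of transcription, with every match that lies wholly inside them in capitals. The first 3 belong to mitotic kinesins called higher, the next 3 to mitotic kinesins that were not called, and KIF24 and KIF3A are other kinesins called higher and lower.
KIF4A (chrX:70289994-70290103, plus strand): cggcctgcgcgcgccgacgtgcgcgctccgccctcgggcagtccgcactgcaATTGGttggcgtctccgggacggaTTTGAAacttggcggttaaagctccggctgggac
KIF11 (chr10:92593020-92593129, plus strand): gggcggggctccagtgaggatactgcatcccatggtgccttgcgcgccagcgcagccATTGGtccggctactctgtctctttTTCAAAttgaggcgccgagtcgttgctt
KIF18B (chr17:44947774-44947883, minus strand): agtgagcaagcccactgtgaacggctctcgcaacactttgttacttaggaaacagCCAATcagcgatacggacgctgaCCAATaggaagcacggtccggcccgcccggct
KIF18A (chr11:28108157-28108266, minus strand): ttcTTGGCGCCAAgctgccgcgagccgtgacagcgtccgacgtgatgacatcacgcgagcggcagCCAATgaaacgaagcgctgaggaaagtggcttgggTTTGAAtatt
KIF20A (chr5:138179002-138179111, plus strand): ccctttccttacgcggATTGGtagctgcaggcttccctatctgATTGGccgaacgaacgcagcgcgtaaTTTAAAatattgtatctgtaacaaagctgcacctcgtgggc
KIF23 (chr15:69414239-69414348, plus strand): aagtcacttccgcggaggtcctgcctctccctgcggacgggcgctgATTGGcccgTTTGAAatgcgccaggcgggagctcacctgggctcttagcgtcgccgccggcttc
KIF24 (chr9:34329269-34329378, minus strand): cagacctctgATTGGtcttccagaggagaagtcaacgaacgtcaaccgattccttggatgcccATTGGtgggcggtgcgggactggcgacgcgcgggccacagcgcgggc
KIF3A (chr5:132737547-132737656, minus strand): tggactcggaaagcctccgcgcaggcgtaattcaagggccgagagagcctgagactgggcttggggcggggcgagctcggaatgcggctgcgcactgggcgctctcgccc

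In KIF4A, KIF11 and KIF20A the reversed NF-Y box (ATTGG) is followed by a homology region 24, 25 and 26 bases further on. KIF18A holds the box in forward letters, with 35 bases between the starts of the pair, and in KIF23 the reversed box lies only 9 bases before the homology region. Among mitotic kinesins not shown, the distance was 23 bases in KIF14, 39 in KIF22, 50 in KIFC1 and 122 in KIF20B. KIF18B shows 2 NF-Y boxes here, and its homology region begins at base 3 after the start. KIF24 likewise has its homology region at base 2 after the start, whereas the KIF3A stretch holds no match. Gene positions given here come from GENCODE, whose starts can differ from those of RefSeq. The KIF11, KIF18B and KIF24 stretches lie outside their GENCODE genes, and that of KIF24 ends at 34311371. The KIF3A stretch lies partly inside its gene, which ends at 132737638. Those of KIF4A and KIF23 also lie partly inside their genes, which begin at 70290090 and 69414246. The KIF18A and KIF20A stretches lie wholly inside genes that end at 28108308 and begin at 138178719. Distances from the start given here thus hold for the RefSeq starts. The homology region was found in the windows of all 12 mitotic kinesins and of 4 of 22 other kinesins (KIF4B, KIF5B, KIF16B and KIF24), against 25.1% of all 35116 promoters in the table. The NF-Y box was found in 10 of 12 mitotic kinesins (KIF15 and KIF2C had none) and 8 of 22 others, against 34.6% of all promoters. E2F letters were found in 4 of 12 and 6 of 22, against 13% of all. These kinesin counts are per gene, with a match in any of its windows, while the shares are per promoter. Counted per promoter, the homology region was in 13 of 13 mitotic and 4 of 30 other windows. The NF-Y box was then in 10 of 13 and 10 of 30, and E2F letters in 4 of 13 and 6 of 30.

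In each of the 12 mitotic kinesins a homology region began between 55 bases before and 25 bases after a RefSeq start. Between 60 bases before and 50 after, a window set after the positions had been seen, 12 of 13 mitotic kinesin promoters held it (KIF22 has 2 starts), against 2 of 30 promoters of other kinesins and 8.67% of all. The element was thus present in called and uncalled mitotic kinesins alike. A match of letters is a description and not evidence of binding.

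**Figure D2:**
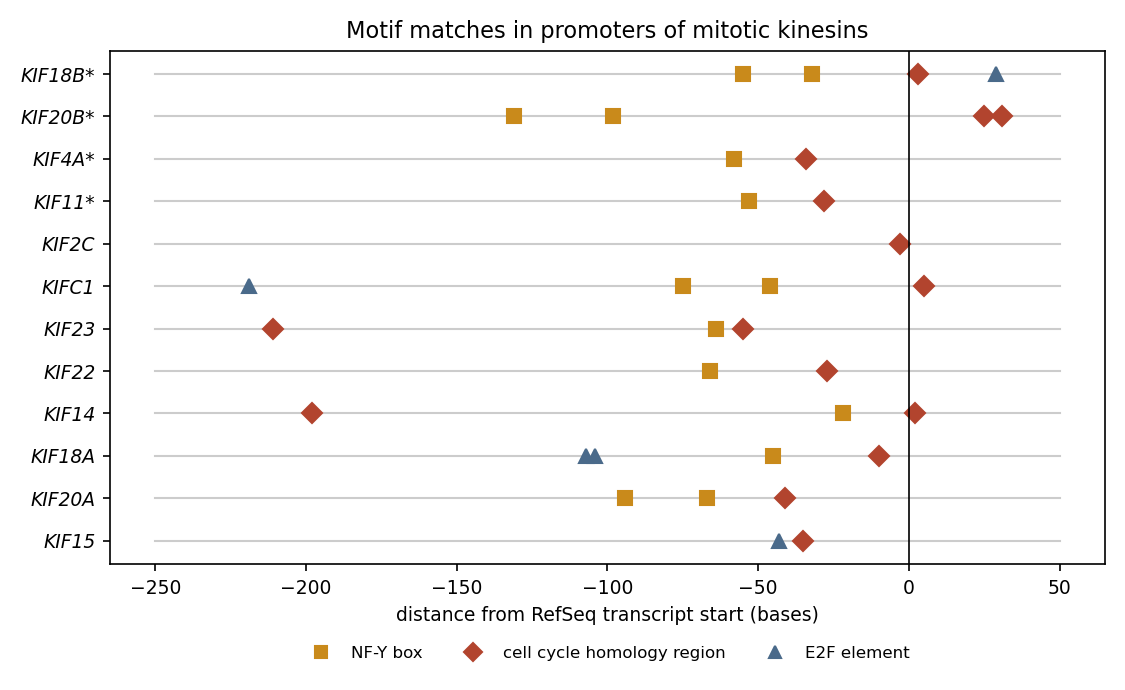
Motif matches along the RefSeq promoter of each mitotic kinesin, by distance in bases from the transcript start (vertical line), with genes ordered by log2 fold change and asterisks on the 4 called higher. Squares are NF-Y boxes, diamonds cell cycle homology regions and triangles E2F letters, and every gene has a diamond between 55 bases before and 25 bases after the start; KIF22 is drawn from the first of its starts.

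The treated libraries differed from each other in an ordered way. Between treated replicates 2 and 1 the median absolute log2 ratio of CPM was 0.24 over the 12 mitotic kinesins, 0.21 over the 34 kinesins tested and 0.18 over all genes tested. Between untreated replicates 2 and 1 it was 0.083, 0.10 and 0.11. Treated replicate 2 stood above replicate 1 by 0.50 in KIF14, 0.47 in KIF20B and 0.31 in KIF15 (log2). It stood below by 0.24 in KIF18B and 0.18 in KIF22, where the log2 ratios were -0.24 and -0.18.

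Those ratios were related to the base composition and the length of the transcripts. GC content of the longest annotated transcript was 34.2% for KIF20B and 38.3% for KIF14, against 58.4% for KIF18B and 58.9% for KIF22. Spearman's rho between GC content and the log2 ratio of treated replicate 2 to replicate 1 was -0.86 over the 12 mitotic kinesins, -0.79 over 34 kinesins and -0.61 over 12574 genes. For the untreated pair it was -0.81, -0.59 and -0.40. With transcript length, rho for the treated pair was 0.76 over the mitotic kinesins, 0.45 over the 34 and 0.25 over all genes. The genes of each correlation share the same pair of libraries and are not independent replicates. Between log2 fold change and GC content rho was 0.13 over the mitotic kinesins, -0.13 over the 34 and -0.19 over 12574 genes.

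With the trend on GC content and transcript length removed within each library, a setting added after the data had been seen, 6 mitotic kinesins were higher and 2 lower. Calls rose over all genes as well in this setting, to 3070 higher and 2936 lower, against 2201 and 2175 in the main fit. KIF18B (0.74), KIF20B (0.55), KIF4A (0.46) and KIF11 (0.32 on the log2 scale) stayed called, KIF2C (edgeR adjusted p = 0.0259) and KIFC1 (0.0221) were added as higher, and KIF18A (0.0423) and KIF15 (0.0389) as lower. Without treated replicate 2, KIF14 (edgeR adjusted p = 0.00865) and KIF15 (0.00586) were called lower and KIF2C higher (0.0314). Without treated replicate 1, KIF23 was called higher (0.00597). KIF14, KIF18A, KIF22 and KIF23 changed sign when a library was left out, while KIF2C, KIFC1, KIF20A and KIF15 kept their sign in all 15 alternatives.

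**Figure D3:**
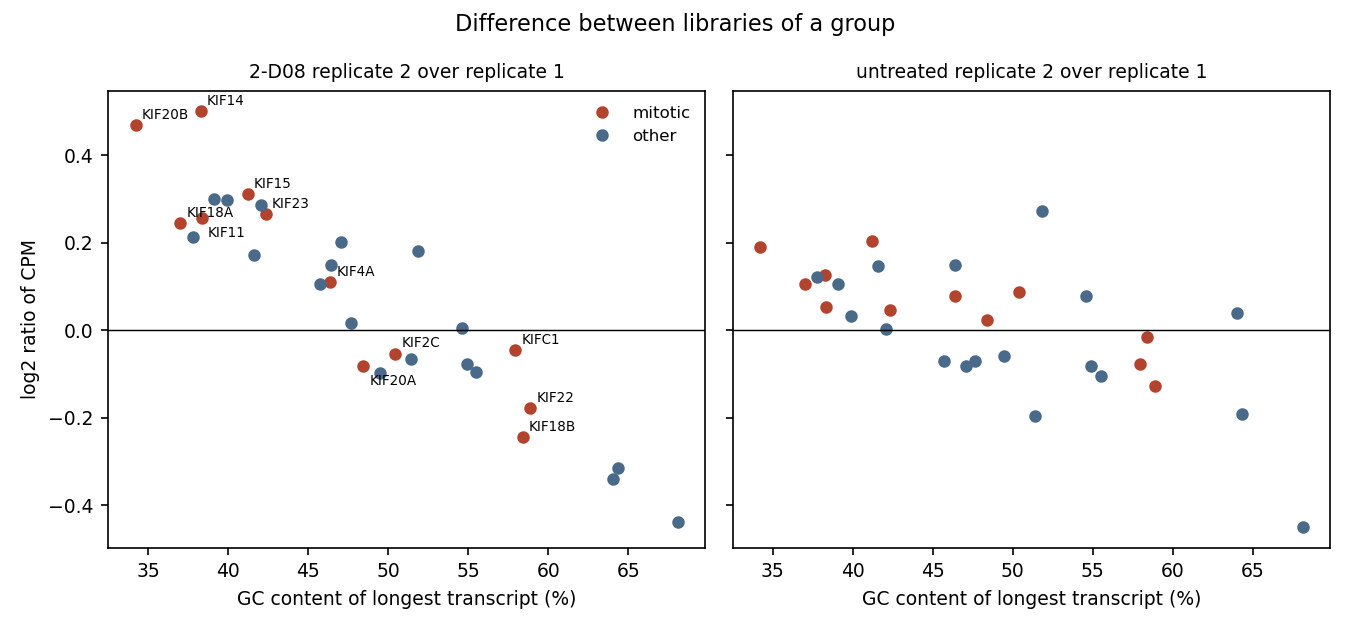
Log2 ratio of CPM between the libraries of a group (left, 2-D08 replicate 2 over replicate 1; right, untreated replicate 2 over replicate 1) against GC content in percent of the longest transcript, for the 30 kinesins with a mean of at least 5 CPM. Points fall from upper left to lower right in both panels and span a wider range in the treated pair, from KIF14 at 0.50 and KIF20B at 0.47 to KIF18B at -0.24 among mitotic kinesins (red).

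Of the 30 other kinesins, 22 were tested, 2 were called higher (KIF24 and KIF21A), 3 lower (KIF3A, KIF16B and KIF13A) and 17 were not called, against 17.1% higher and 16.9% lower over all genes tested. Their median log2 fold change was -0.06, against -0.0033 for all genes. In 5 of the 22 the groups did not overlap with treated higher, and in 7 with treated lower, against 33.8% and 33.7% of all genes tested.

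KIF24 (chromosome 9, 34252381 to 34311371), a kinesin-13 of the mother centriole that restrains the outgrowth of cilia, had 22.3 and 20.8 CPM in treated cells, against 13.8 and 13.3 CPM in untreated cells. The treated libraries were both higher by more than the spread within either group. Its log2 fold change of 0.66 ± 0.14 (SE, edgeR's quasi-likelihood test, adjusted p = 0.00274) was the largest of the 9 called kinesins. With limma on the TPM scales the adjusted p was 0.13 and 0.137. KIF21A (chromosome 12, 39293228 to 39443390), a kinesin-4 that slows microtubule growth, had 60.1 and 73.3 CPM in treated cells, against 54.1 and 54.2 CPM in untreated cells. The groups did not overlap, with a log2 fold change of 0.31 ± 0.11 (SE, edgeR's quasi-likelihood test, adjusted p = 0.0467). This call was lost with DESeq2 (adjusted p = 0.0793), on leaving out treated replicate 2 (0.313, log2 fold change 0.14), untreated replicate 1 (0.262) or untreated replicate 2 (0.232), and with limma on the TPM scales (0.388 and 0.389).

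The 3 other kinesins called lower were KIF13A, KIF16B and KIF3A. KIF13A (chromosome 6, 17759183 to 17987623), a kinesin-3 that moves recycling endosomes, had 104 and 115 CPM in treated cells, against 146 and 162 CPM in untreated cells. Every treated value was below every untreated value, with a log2 fold change of -0.49 ± 0.10 (SE, edgeR's quasi-likelihood test, adjusted p = 0.00152). It lost its call without untreated replicate 2 (0.054) and with limma on the TPM scales (0.0687 and 0.067). KIF16B (chromosome 20, 16272104 to 16573434), a kinesin-3 that binds early endosomes, had 23.1 and 24.9 CPM in treated cells, against 34.3 and 32.6 CPM in untreated cells. The groups were well apart, with a log2 fold change of -0.48 ± 0.12 (SE, edgeR's quasi-likelihood test, adjusted p = 0.00742). Without untreated replicate 1 the adjusted p was 0.142, and on the TPM scales it was 0.217 with both pseudocounts.

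KIF3A (chromosome 5, 132692628 to 132737638) forms the heterotrimeric kinesin-2 of ciliary transport with KIF3B and the adaptor KIFAP3. It had 41.1 and 47.7 CPM in treated cells, against 56.1 and 61.0 CPM in untreated cells. The treated libraries were both lower, with a log2 fold change of -0.39 ± 0.11 (SE, edgeR's quasi-likelihood test, adjusted p = 0.0148). The call was lost on leaving out untreated replicate 1 (0.0669) or untreated replicate 2 (0.179), and on the TPM scales (0.0722 and 0.0709). Its partner KIF3B had 151 and 153 CPM in treated cells against 154 and 147 CPM in untreated cells, a fold of 1.01 (95% interval 0.887 to 1.16). On the TPM scale, KIF3A stood to KIF3B at 0.452 and 0.544 in treated cells and 0.714 and 0.675 in untreated cells. The ratio was lower in both treated libraries. KIFAP3 had 22.3 and 28.4 CPM in treated cells against 29.1 and 29.8 CPM in untreated cells and was not called. KIF3C, which can pair with KIF3A in its place, had 34.2 and 32.0 CPM against 35.3 and 32.8 CPM, and its fitted sign was opposite on the TPM scales.

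The conventional kinesin KIF5B had 712 and 877 CPM in treated cells, against 637 and 685 CPM in untreated cells. The groups did not overlap, and its fold of 1.2 (95% interval 1.03 to 1.4) gave an edgeR adjusted p of 0.0613, just short of the threshold. The adjusted p was 0.0469 with library size as the only scaling and 0.00306 with the composition trend removed. The size rested on treated replicate 2: the log2 fold change was 0.27 with all libraries, 0.10 without treated replicate 2 (adjusted p = 0.311) and 0.41 without treated replicate 1 (1.86e-06). Its neuron-enriched relatives were low. KIF5A had 6.38 and 6.09 CPM in treated cells against 9.03 and 7.87 CPM in untreated cells (edgeR adjusted p = 0.082, and 0.0463 without treated replicate 1), with no such gap on the TPM scale, where it had 2.61 and 2.04 against 2.37 and 2.22 TPM. KIF5C lay between 1.89 and 2.72 CPM.

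Among further kinesin-3 motors, KIF13B had 73.5 and 73.7 CPM in treated cells against 84.3 and 88.9 CPM in untreated cells. The direction was that of KIF13A, but the test gave an edgeR adjusted p of 0.0667, which became 0.0314 without treated replicate 1 and 0.0423 without treated replicate 2. KIF1C, a motor of integrin-bearing vesicles, had 225 and 213 CPM in treated cells against 195 and 184 CPM in untreated cells, with a fold of 1.16 (95% interval 1.01 to 1.32, edgeR adjusted p = 0.0896). It passed without treated replicate 2 (0.011) and with the composition trend removed (0.000106). KIF1B, which carries mitochondria and vesicle precursors, had 229 and 264 CPM against 258 and 244 CPM, and the groups overlapped.

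KIF7, KIF27 and KIF9 were low in CPM, though KIF9 had a mean of 12.1 TPM over all libraries. KIF7, which organises the tip of the primary cilium, had 17.7 and 13.9 CPM in treated cells against 13.01 and 13.4 CPM in untreated cells (edgeR adjusted p = 0.259). Its relative KIF27 had 17.1 and 21.0 CPM against 21.9 and 22.5 CPM, and 31.7% of its 50-base stretches also occur in other annotated transcripts. KIF9, a kinesin of motile cilia, had 5.85 and 6.65 CPM against 5.29 and 6.42 CPM and overlaps an antisense gene over 9.56% of its stretches. For KIF7, TICRR shares 7.28% of the stretches on the opposite strand. None of the 3 passed the test with all libraries, but without treated replicate 2 KIF7 passed as higher (edgeR adjusted p = 0.0429) and KIF27 as lower (0.0438), and both passed with the composition trend removed (0.0108 and 0.0396).

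The microtubule-depolymerising kinesin-13 KIF2A had 139 and 157 CPM in treated cells against 136 and 150.3 CPM in untreated cells, and the groups overlapped. IPO11 shares 7.7% of its 50-base stretches on the same strand. The kinesin-14 KIFC3 had 34.9 and 28.1 CPM against 34.8 and 30.5 CPM, and KIFC2 had 8.77 and 6.45 CPM against 9.71 and 7.08 CPM. Both spread widely within groups, and their values lean towards replicate 1 in either group. For KIFC2, FOXH1 shares 15.8% of the 50-base stretches on the opposite strand.

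**Figure D4:**
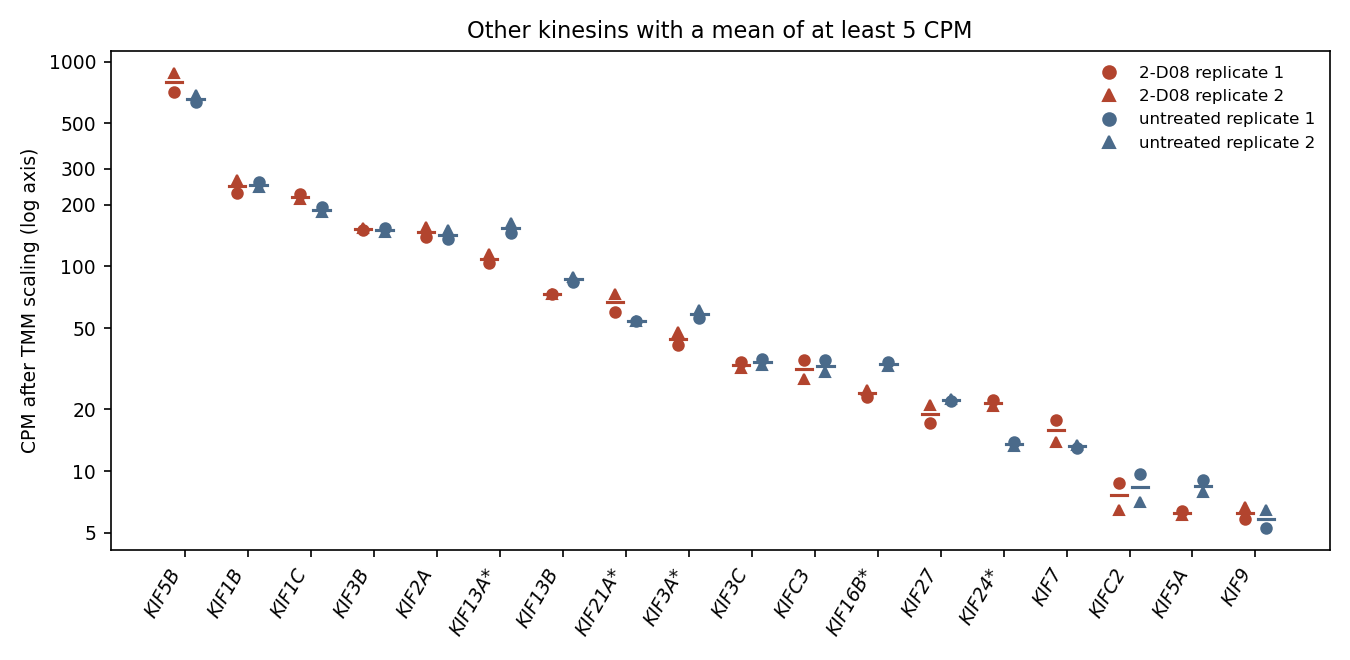
Level of the 18 other kinesins whose mean reached 5 CPM, plotted in CPM after TMM scaling (log axis), with 2-D08 libraries left of untreated ones and symbols as for the mitotic kinesins. Asterisks mark the 5 genes called, of which KIF24 and KIF21A lie higher and KIF13A, KIF3A and KIF16B lower in treated cells, and KIF5B tops the plot at 637 to 877 CPM.

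The 12 kinesins with a mean under 5 CPM give little to compare. KIF2B and KIF21B had 0 counts in all 4 libraries. KIF12, KIF19, KIF25, KIF26A and KIF4B had at most 24 counts over the 4 libraries together and were not tested. KIF1A, a neuronal carrier of synaptic vesicle precursors, had 3 and 10 counts in treated cells and 0 in both untreated libraries, and was not tested. KIF6 had 2 and 6 counts in treated cells against 14 and 13 in untreated cells (edgeR adjusted p = 0.0641), and KIF17 had 8 and 6 against 26 and 7. KIF17 had 0.26 and 0.77 TPM in treated cells against 0.52 and 0.16 TPM in untreated cells, so the counts and TPM differ in direction. KIF26B had 3 and 18 counts against 16 and 10.

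**Figure D5:**
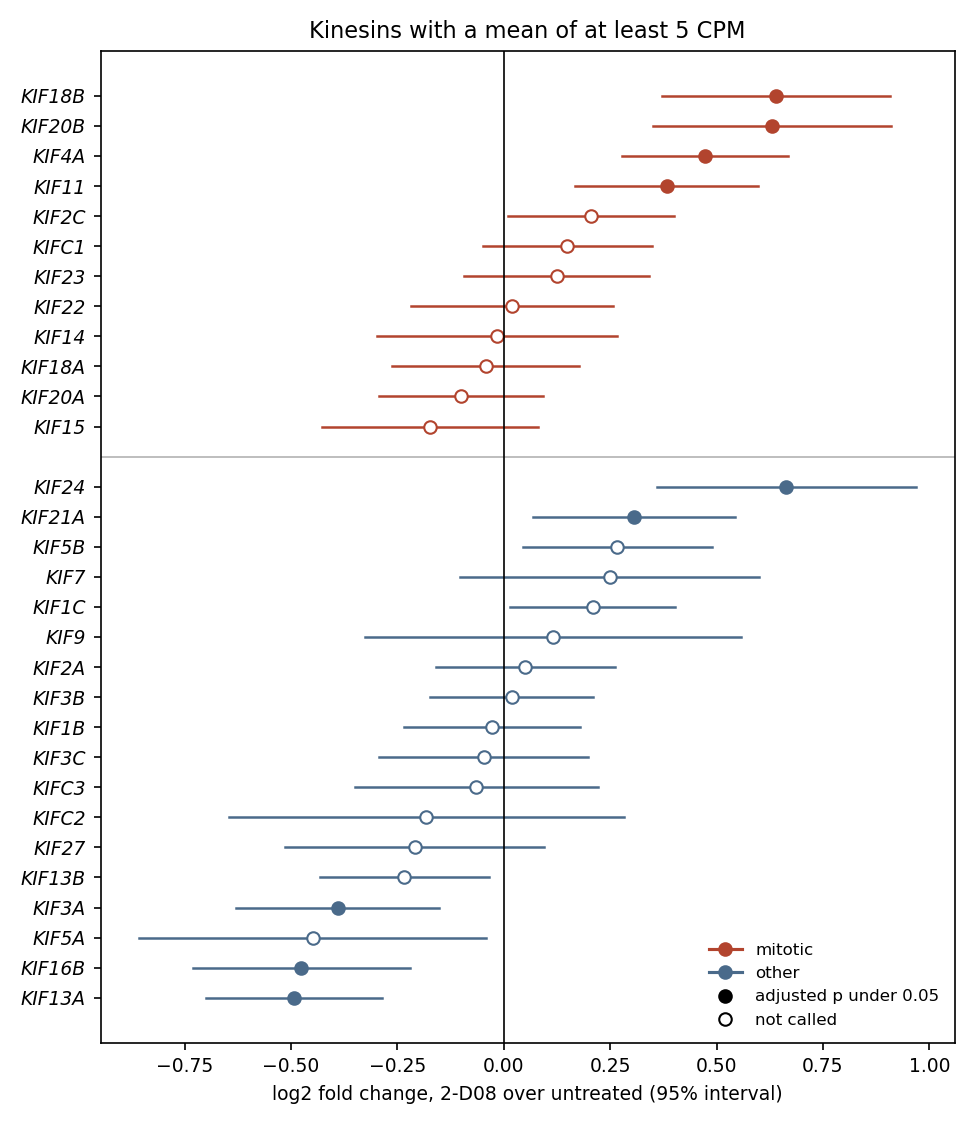
Log2 fold change of treated over untreated cells with its 95% interval for the 30 kinesins with a mean of at least 5 CPM, mitotic kinesins above and others below the line. Filled points passed an adjusted p under 0.05: 4 mitotic kinesins and KIF24 and KIF21A lie right of 0, and KIF3A, KIF16B and KIF13A left of it.

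The proteins that mitotic kinesins work with were taken from a list of 22 spindle partners. Of these, 9 were higher and 2 lower by edgeR, against 17.1% higher and 16.9% lower over all genes tested, with a median log2 fold change of 0.27. HMMR, a spindle-pole protein, had 216 and 285 CPM in treated cells against 141 and 162 CPM in untreated cells, or 0.74 higher on the log2 scale (edgeR adjusted p = 0.000482). TACC3 (0.61), which stabilises kinetochore fibres, the passenger protein gene BIRC5 (0.56), NUSAP1 (0.49) and the kinase gene AURKA (0.49) also rose. NUMA1, which ties dynein to the spindle poles, fell, with 164 and 138 CPM in treated cells against 256 and 239.8 CPM in untreated cells (log2 fold change -0.72). CENPE, the kinetochore kinesin, had 204 and 344 CPM against 203 and 225 CPM and was not called (edgeR adjusted p = 0.314). The kinesin partners PRC1, RACGAP1 and ECT2, of KIF4A and KIF23, were not called either. CIT, the citron kinase that works with KIF14, was lower, with 137 and 135 CPM in treated cells against 161 and 162 CPM in untreated cells (-0.25, edgeR adjusted p = 0.0433).

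A list of 16 genes held regulators of late cell cycle genes together with CDK1, CCNA2, CCNB1, CCNB2, CDC25B and CDC25C. Of the 16, 7 were higher and 2 lower by edgeR, with a median of 0.28. All genes tested had 17.1% higher and 16.9% lower. MYBL2, the activating MYB of late cell cycle genes, had 62.8 and 60.3 CPM in treated cells against 28.3 and 29.6 CPM in untreated cells (log2 fold change 1.09). CDK1 (1.11), the pocket protein gene RBL1 (0.94), LIN54 (0.57) and TFDP1 (0.49) rose as well. RBL2, a pocket protein of resting cells, fell, with 58.3 and 64.4 CPM in treated cells against 114 CPM in both untreated libraries (-0.89). The cyclin genes CCNB1, CCNB2 and CCNA2 were not called.

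On the transport side, 3 of 19 tested light chain and adaptor genes were higher and 3 lower by edgeR, with a median of 0.0066. These counts lie near the shares over all genes tested, 17.1% higher and 16.9% lower. KLC2, a kinesin light chain, had 48.8 and 41.5 CPM in treated cells against 33.2 and 28.2 CPM in untreated cells (log2 fold change 0.54, edgeR adjusted p = 0.00453). The light chain KLC4 moved the other way, with 10.0 and 8.30 CPM in treated cells against 21.6 and 17.9 CPM in untreated cells (-1.13, edgeR adjusted p = 0.000216). BORCS5 (-0.82), which couples lysosomes to kinesins, and RHOT1 (-0.42), the mitochondrial adaptor Miro, fell. KIFBP (0.27), which binds several kinesin motor domains, rose.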

How the data were processed

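RNA was sequenced in 4 libraries of SK-LMS-1 cells. The submitters' processing notes name GRCh38, DESeq2, STAR 2.7.8a and cutadapt 3.4, and per the labels' protocols ribosomal RNA was depleted from total RNA. For the read counter, strand setting and gene annotation, the answer is not given in the sources used here. Deposited by the authors were raw counts per gene as whole numbers and TPM values, which scale for transcript length and depth. Another table, of transformed values, was not used here. Columns were matched to samples by name, with 0 columns unmapped.

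Counts were fitted in R 4.3.3 with edgeR 4.0.16 (filterByExpr with minimum count 10, TMM factors, robust quasi-likelihood, two-sided), with Benjamini-Hochberg adjustment over 12906 genes and calls at an adjusted p under 0.05. Standard errors and 95% intervals were derived from the F statistic. Log2 ratios between single libraries used CPM + 0.1. limma 3.58.1 and DESeq2 1.42.0 served as alternatives. Scripts were tested on simulated data. Positions, transcript length and GC content came from GENCODE 29 (GRCh38), whose release can differ from the authors', and promoters from RefSeq (GRCh38.p14).

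All kinesins called or with a mean of at least 5 CPM are given per library, and of each list up to 6 called genes with the smallest adjusted p and a mean of at least 1 CPM; further list members were chosen after their values were seen. A gene of the adaptor list that this rule names is not reported here. The members and lists were chosen with earlier results of these data known.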

Additional observations from a re-analysis of the deposited data

How the results depend on the processing

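Of the 9 called kinesins, 0 changed sign in 15 alternatives, and KIF18B was past the threshold in all of them. Leaving out untreated replicate 1 lost 5 calls, untreated replicate 2 lost 4 and treated replicate 2 lost 1 (KIF21A). DESeq2 lost 1 (KIF21A), limma on either TPM scale lost 7, and the others lost 0, including counts halved in the libraries with mostly even counts. With limma on log2(TPM + 1), 702 genes were higher and 896 lower, and on log2(TPM + 0.1) 714 and 894. Both TPM scales gave 2 mitotic kinesins higher, 0 other kinesins higher and 0 lower, 3 spindle partners higher and 1 lower, 4 regulators of late cell cycle genes higher and 1 lower, 0 adaptors higher and 1 lower, and 1 dynein and dynactin gene higher and 1 lower. The cause was not tested. DESeq2 gave 1 other kinesin higher, and RLE size factors 1 spindle partner lower. With the trend on GC content and length removed, chosen after seeing the data, 2 mitotic kinesins were lower, 5 other kinesins higher, 15 spindle partners higher and 1 lower, and 5 adaptors lower. Over all genes that setting called 3070 higher and 2936 lower.

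No label says that equal replicate numbers mark paired libraries. Deviations of same-numbered libraries correlated at 0.157 over 12906 genes. A block on replicate number gave 3138 genes higher and 3101 lower, 1 mitotic kinesin (KIF15) lower, 4 other kinesins higher and 6 lower, 15 spindle partners higher, 6 adaptors lower and 5 dynein and dynactin genes higher. It lost 0 of the called kinesins and added 7, KIF5B, KIF1C and KIF13B among them.

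Leaving out 1 library, which assumes that the lone library varies like the other group, gave 949 to 2931 genes higher and 917 to 3146 lower, with the fewest in both directions without untreated replicate 1. It gave 2 to 5 mitotic kinesins higher and 0 to 2 lower, 1 to 3 other kinesins higher and 1 to 5 lower, 3 to 15 spindle partners higher and 1 to 2 lower, 5 to 10 regulators higher and 1 to 2 lower, 0 to 4 adaptors higher and 2 to 7 lower, and 1 to 7 dynein and dynactin genes higher and 0 to 6 lower.

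Of 25 kinesins not called, 15 changed sign in some setting. Leaving out a library, log2 fold changes ran from -0.30 to 0.20 for KIF14, -0.18 to 0.069 for KIF18A, -0.14 to 0.065 for KIF1B, -0.073 to 0.10 for KIF22, -0.022 to 0.25 for KIF23, -1.48 to 0.038 for KIF26B, -0.043 to 0.13 for KIF2A, -0.019 to 0.054 for KIF3B, -0.10 to 0.0090 for KIF3C, -0.031 to 0.24 for KIF9, -0.41 to 0.087 for KIFC2 and -0.23 to 0.086 for KIFC3. On log2(TPM + 1) and log2(TPM + 0.1) the sign turned for KIF5C (-0.0087 and -0.020), KIF3B (-0.035 and -0.036), KIF3C (0.26 and 0.28), KIF5A (0.0081 and 0.0086) and KIF17 (0.17 and 0.48). With the composition trend removed it turned for KIF2A (-0.027), KIF1B (0.066), KIF3C (0.062) and KIFC3 (0.083). Kinesins under 1 CPM have too few counts for a direction to be read.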

Other observations

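Dynein, the motor that moves cargo opposite to most kinesins, and its activator dynactin were measured through a list of 20 genes, of which 19 were tested, 3 were higher and 5 lower in treated cells by edgeR, against 17.1% higher and 16.9% lower over all genes tested. Their median log2 fold change was 0.08. The dynein heavy chain gene DYNC1H1 had 1305 and 1427 CPM in treated cells against 1728 and 1634 CPM in untreated cells (log2 fold change -0.30, edgeR adjusted p = 0.0179). DCTN1, the largest dynactin subunit, had 141 and 139.5 CPM against 192 and 181 CPM (-0.41), and NDE1, a dynein regulator, had 22.8 and 23.5 CPM against 35.0 and 32.6 CPM (-0.55). All 3 were lower in both treated libraries. The light chain genes DYNLL1 (0.31) and DYNLL2 (0.36) were higher. DYNC1I1, an intermediate chain common in neurons, had 3.46 and 4.21 CPM in treated cells against 1.69 and 1.03 CPM in untreated cells (1.46, edgeR adjusted p = 0.0028).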
